A study of Mus musculus with 6 samples.

Results

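The D cyclins, their kinases and the Rb pocket proteins were followed through an early step of red cell formation, in RNA of the S1 and S3 subsets of mouse fetal liver. The 9 genes were the D cyclins Ccnd1, Ccnd2 and Ccnd3, the kinase genes Cdk2, Cdk4 and Cdk6, and the pocket protein genes Rb1, Rbl1 and Rbl2. They were chosen by name, with earlier results of these data known, and are 9 of 18193 genes with a probe set of their own on the array. All probe sets of the array annotated with a member's symbol alone were taken, which gave 29 of 45101 probe sets, and 26 of these passed the filter on dim probe sets described under the processing. Cells of whole fetal livers from Balb/C embryos were stained for the transferrin receptor CD71, the red cell antigen Ter119 and markers of other lineages, and S1 (less mature) and S3 (more mature) cells were sorted on 3 days, giving 3 arrays per subset. The study was made for work on DNA demethylation during red cell formation. The labels name no transgene, mutation or treatment for either subset. The stage label places S1 at embryonic day 12.5 and S3 at 13.5, whereas the source label gives 13.5 for all 6 arrays, so subset and embryo age cannot be told apart. The arrays read sorted cells in bulk, so fewer cells of a type and less RNA per cell cannot be told apart either.

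In the G1 phase of the cell cycle, D cyclins bind Cdk4 or Cdk6, and the active kinase phosphorylates the pocket proteins Rb (Rb1), p107 (Rbl1) and p130 (Rbl2). Hypophosphorylated pocket proteins hold E2F transcription factors in check, and their phosphorylation, completed by Cdk2 with E and A cyclins, lets genes of DNA replication be transcribed. Red cell precursors divide a limited number of times while they mature. Loss of cyclin D3 in mice is known to give fewer and larger red cells, and Cdk6 is known as a kinase of blood progenitors.

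Values are log2 signals scaled by the authors to reference transcripts, and a log2 change of 1 is a 2-fold change. S1 and S3 differed in markers of red cell stages. Kit, a receptor of progenitors, was above background on all 3 S1 arrays and on 0 of 3 S3 arrays. Myb, also of progenitors, was lower in S3 by a log2 change of -3.57, and Slc4a1 and Alas2, of later red cell precursors, rose by 2.45 and 4.88 (limma adjusted p of 0.00193 to 0.00499). The other 4 of 6 measured red cell markers were not called. These were Epor (0.90), Klf1 (0.44), Tfrc (0.21) and Gata1 (-0.12), with limma adjusted p of 0.287 to 0.742. Of 5 lists for other cell types, those of macrophages (summed log2 level of 4.90 to 6.89 in S1 and 5.26 to 6.50 in S3), hepatocytes (7.84 to 8.16 and 7.68 to 9.63), granulocytes (4.16 to 5.57 and 3.38 to 6.18) and lymphoid cells (0.90 to 2.53 and 0.76 to 1.27) overlapped between the subsets. The 6 megakaryocyte markers summed to log2 6.32 to 7.46 in S1 and 8.47 to 8.57 in S3 without overlap, all 6 were above background in both subsets, and their part in the rises below was not tested. Of these 6, Vwf alone was called (2.72, limma adjusted p = 0.0402). Adgre1 of macrophages, Elane and Ctsg of granulocytes, and Cd3e, Il7r and Rag1 of lymphoid cells were above background on no array. Other macrophage markers were above background, Cd68 and C1qb on all arrays and Csf1r on 3 S1 and 2 S3 arrays. Mrc1 and Vcam1 were above it on 2 S1 and 3 S3 arrays, and C1qa on 0 S1 and 2 S3 arrays. Of granulocytes, S100a8 was above it on 2 S1 and 3 S3 arrays, and Mpo on 2 S1 and 1 S3. Cd79a of lymphoid cells was above it on 2 S1 and 0 S3 arrays. Prtn3 of granulocytes was called lower in S3 (limma adjusted p = 0.0239), where 1 of 3 arrays was above background. Probe sets at opposite ends of the actin transcript split the arrays. The signal of the 5' one minus that of the 3' one was -2.59 to -2.08 on 3 arrays, called short (S1 replicates 1 and 2, S3 replicate 2), and -0.56 to -0.45 on the other 3, called long (S1 replicate 3, S3 replicates 1 and 3). This class was added to the fit as a block, and changes were also computed within each class. There 1 subset is a lone array (S1 in the long class, S3 in the short class), so these changes are given without a p-value. The labels do not mention this difference.

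Over the 9 genes, Ccnd3 and Rb1 rose, Ccnd2 and Cdk6 fell, and Ccnd1, Cdk2, Cdk4, Rbl1 and Rbl2 were not called at their brightest probe sets. Of the 26 tested probe sets 3 were called higher and 3 lower in S3 by limma at an adjusted p under 0.05, where 1.61% of all 27022 probe sets tested were called higher and 6.66% lower. Of the 9 genes 2 were higher and 2 lower, against 2.02% and 9.62% of 11959 genes. Arrays of the subsets did not overlap for 3 probe sets that read higher and 9 that read lower in S3, against 5.39% and 22.9% of all probe sets. With the class block 4 member probe sets were higher and 12 lower, against 4.16% and 28.2%, and 3 genes were higher and 3 lower, against 4.99% and 36.3%. Over all genes tested the median log2 change was -0.33, and -0.54 with the class block. Centring each array on its median moved the median over probe sets from -0.24 to -0.01. Over all probe sets the split was then 748 higher and 1144 lower, against 436 and 1801 without centring.

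**Figure D1:**
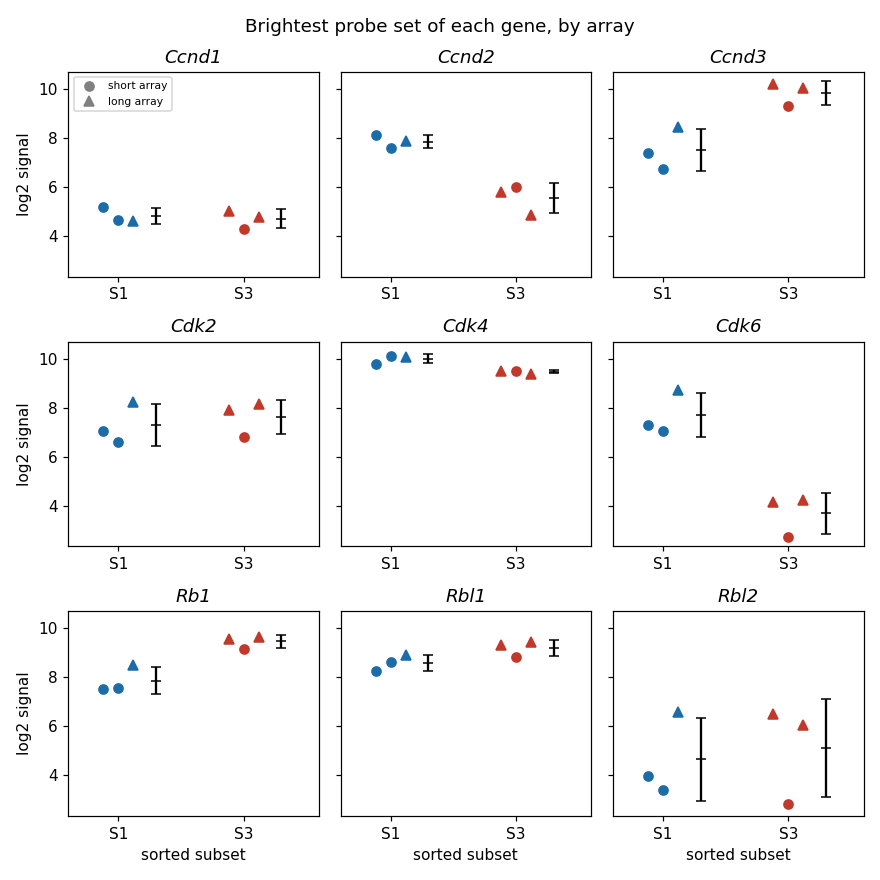
Log2 signal (vertical axis) of the brightest probe set of each of the 9 genes in S1 (blue) and S3 (red), 1 point per array, circles for short and triangles for long arrays, with the mean and SD of 3 arrays in black. The S3 points of Cdk6 and Ccnd2 lie below and those of Ccnd3 and Rb1 above every S1 point, while those of Ccnd1, Cdk2, Rbl1 and Rbl2 overlap.

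Cyclin D3, the D cyclin known for its part in the divisions of red cell precursors, rose. Its brightest probe set (1415907_at) read 7.40, 6.71 and 8.43 in S1 replicates 1 to 3 and 10.20, 9.29 and 10.02 in S3 replicates 1 to 3. Every S3 array was above every S1 array, and in each subset the short arrays read lowest. Ccnd3 rose from a mean of 7.51 ± 0.87 to 9.84 ± 0.48 on the log2 scale (SD, n = 3), a log2 change of 2.32 ± 0.45 (SE), or 5.00-fold (limma adjusted p = 0.0224). A dimmer probe set (1444323_at) read 2.87, 3.30 and 3.63 in S1 and 5.60, 5.94 and 5.31 in S3. It rose by 2.35 ± 0.46 (limma adjusted p = 0.0231), a change within 1 SE of that of the brighter one. Its call held without S1 replicate 3 and was lost without S1 replicate 1 (2.15, 0.0794), S1 replicate 2 (2.36, 0.0808), S3 replicate 1 (2.35, 0.0913), S3 replicate 2 (2.185, 0.0567) or S3 replicate 3 (2.50, 0.0831). The dimmest probe set of Ccnd3 was above background on 1 S1 and 2 S3 arrays and was not called (1.93 ± 1.13, adjusted p = 0.392). The class block gave a log2 change of 1.96 ± 0.22 at the brightest probe set (adjusted p = 0.000629), and it was 1.68 within the long and 2.23 within the short arrays. The call was lost without S1 replicate 1 (2.26, adjusted p = 0.0885), S1 replicate 2 (1.92, 0.0726), S3 replicate 1 (2.14, 0.0835) or S3 replicate 3 (2.23, 0.0934).

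The RefSeq table (GRCm38.p6) holds a promoter for 6 of the 9 genes, with 2 start sites for Ccnd3 and none for Ccnd1, Ccnd2 and Rb1. The 250 bases before each start were searched on both strands for the E2F site (TTTCCCGC, TTTCGCGC, TTTGCCGC or TTTGGCGC), the E-box bound by MYC (CACGTG), the GATA site (AGATAA or TGATAA) and the cell cycle homology region (TTTGAA or TTCGAA). No motif contains another. Of 32817 promoter windows of this length, 1.86% held the E2F letters, 6.02% the E-box, 16.6% the GATA and 17.1% the homology region letters. Neither Ccnd3 window held any of them. The windows of Ccnd3, the D cyclin that rose, are shown on the plus strand, at chr17:47504801-47505050 and chr17:47593217-47593466.
Ccnd3 start 1: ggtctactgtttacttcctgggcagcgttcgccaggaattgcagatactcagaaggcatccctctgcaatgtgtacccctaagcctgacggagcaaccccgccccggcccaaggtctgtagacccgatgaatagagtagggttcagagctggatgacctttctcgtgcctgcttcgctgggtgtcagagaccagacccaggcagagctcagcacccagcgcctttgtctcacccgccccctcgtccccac
Ccnd3 start 2: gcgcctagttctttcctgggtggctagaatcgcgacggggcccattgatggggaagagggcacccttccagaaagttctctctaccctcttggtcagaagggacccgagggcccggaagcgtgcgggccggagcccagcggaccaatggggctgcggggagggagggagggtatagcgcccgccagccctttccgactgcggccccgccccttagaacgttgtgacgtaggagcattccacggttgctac

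Cyclin D2, which like cyclin D3 activates Cdk4 and Cdk6, fell. Its brightest probe set (1434745_at) read 8.11, 7.58 and 7.86 in S1 and 5.81, 5.98 and 4.85 in S3. All S3 arrays were below all S1 arrays by more than the spread within either subset. Ccnd2 fell from 7.85 ± 0.27 in S1 to 5.55 ± 0.61 in S3 (n = 3), a log2 change of -2.30 ± 0.42 (SE), or 4.94-fold (limma adjusted p = 0.0184). Blocking on class gave -2.20 ± 0.32 (adjusted p = 0.00197), and the change was -2.53 within the long and -1.87 within the short arrays. The call was lost without S1 replicate 1 (-2.17, adjusted p = 0.0890), S1 replicate 2 (-2.44, 0.0720), S3 replicate 1 (-2.43, 0.0546) or S3 replicate 3 (-1.96, 0.0662), and with quantile normalization (-1.95, 0.0538).

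The other 6 probe sets of Ccnd2 were all lower in S3, by log2 changes of -2.04 to -0.65, and none was called. For 1416124_at the arrays read 6.15, 6.47 and 6.92 in S1 and 4.89, 3.28 and 5.27 in S3 without overlap (-2.04 ± 0.60, adjusted p = 0.0837, or -2.44 and adjusted p = 0.00161 with the class block). For 1416122_at they read 3.85, 3.28 and 6.46 in S1 and 4.80, 2.17 and 4.66 in S3. Here the long S1 array stood above all others and the long S3 arrays above the short S1 arrays, so that the subsets overlapped. Blocked by class, this probe set changed by -1.56 ± 0.37 (adjusted p = 0.0141), and without S1 replicate 3 its sign turned (0.32, adjusted p = 0.888), as it did without S3 replicate 2 (0.205, adjusted p = 0.935). In the class-block fit 6 of the 7 Ccnd2 probe sets were called lower, against 28.2% of all probe sets. The exception was 1416123_at (-1.26 ± 0.57, adjusted p = 0.135). The mean over the 7 probe sets changed by -1.39 ± 0.63 (adjusted p = 0.224 over genes).

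Cyclin D1, a D cyclin prominent in many tissues outside the blood, was not called. Its brightest probe set (1448698_at) read 5.19, 4.65 and 4.59 in S1 and 5.03, 4.27 and 4.79 in S3. These values overlap, with a log2 change of -0.12 ± 0.45 (95% confidence interval -1.17 to 0.93, limma adjusted p = 0.931). The sign was 0.11 with median centring, and the interval leaves room for a change of about 2-fold in either direction. The other 2 probe sets changed by 0.05 ± 0.46 and -0.36 ± 0.86 and were not called.

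Within an array the scaling cancels between a pair of genes, so the change of their log2 difference does not depend on it. Ccnd3 minus Ccnd2 was higher by 4.63 in S3 than in S1 (SD of 0.79 in S1 and 0.94 in S3), and all 3 S3 arrays lay above all 3 S1 arrays. The exact two-sided permutation test gave p = 0.10, the smallest it can give for 3 against 3 arrays, and 0.167 after Benjamini-Hochberg adjustment over the 5 pairs compared. Each gene alone already separated the subsets, in opposite directions, so this separation and its p were fixed in advance. They add nothing to the results of the single genes. Over the mean of the tested probe sets of both genes the change of Ccnd3 minus Ccnd2 was 3.59.

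**Figure D2:**
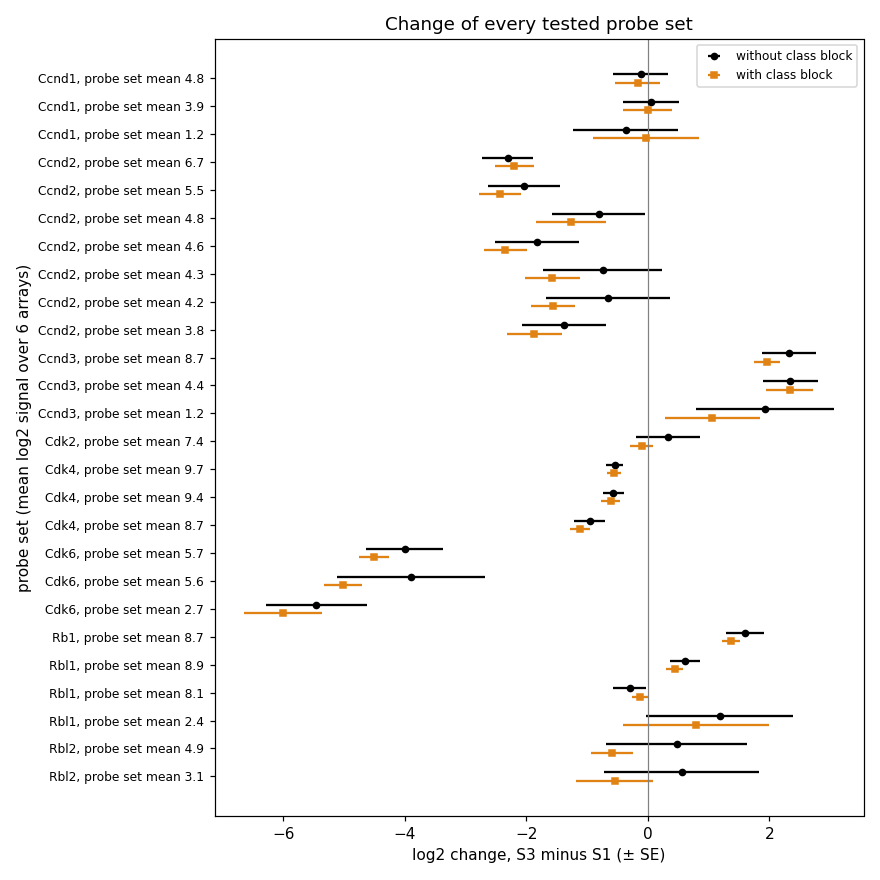
Log2 change from S1 to S3 (horizontal axis, ± SE) of the 26 tested probe sets of the 9 genes, without the class block (black circles) and with it (orange squares). The probe sets of Cdk6 and Ccnd2 lie below 0 and those of Ccnd3 above 0 in both fits, and those of Rbl2 change sign between the fits.

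Of the kinases, Cdk6 changed most. Its brightest probe set (1455287_at) read 7.28, 7.06 and 8.73 in S1 and 4.14, 2.72 and 4.20 in S3. The lowest S1 array was nearly 3 log2 units above the highest S3 array, and the long arrays read highest in each subset. Cdk6 fell from 7.69 ± 0.90 in S1 to 3.69 ± 0.84 in S3 (n = 3), a log2 change of -4.002 ± 0.63 (SE), or 16.0-fold (limma adjusted p = 0.0120). The probe set 1460291_at read 5.35, 5.16 and 5.91 in S1 and 1.502, -1.72 and 0.26 in S3, where 1 array was above background. It changed by -5.46 ± 0.83 (adjusted p = 0.0106), and by -4.06 with values raised to the background of each array. The probe set 1435338_at read 6.58, 6.59 and 9.54 in S1 and 4.64, 1.15 and 5.26 in S3, again without overlap, and was not called over all arrays (-3.89 ± 1.22, adjusted p = 0.100). With the class block all 3 Cdk6 probe sets were called lower, against 28.2% of all probe sets. The Cdk6 changes were -4.50 ± 0.24, -5.02 ± 0.31 and -6.00 ± 0.64 (adjusted p of 0.000162, 0.000163 and 0.000550). For the brightest, the change was -4.55 within the long and -4.45 within the short arrays. Without S1 replicate 1 it was -4.21 (adjusted p = 0.0518), and it passed without each of the other arrays. The call of 1460291_at was lost without S1 replicate 1 (-5.52, 0.0540) or S1 replicate 2 (-5.62, 0.0540).

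Cdk4, the other partner of the D cyclins, was bright in both subsets and read lower in S3 at all 3 probe sets, the brightest of which changed least. The brightest probe set (1422441_x_at) read 9.80, 10.13 and 10.09 in S1 and 9.52, 9.49 and 9.39 in S3. The arrays did not overlap, and the log2 change was -0.54 ± 0.14 (SE), or 1.45-fold (limma adjusted p = 0.0563). The other 2 probe sets read lower by -0.57 ± 0.18 and -0.96 ± 0.26 without overlap and were not called (adjusted p = 0.0993 and 0.0662). With the class block all 3 Cdk4 probe sets were called lower, against 28.2% of all probe sets. The brightest Cdk4 probe set changed by -0.56 ± 0.12 (adjusted p = 0.0103), next to a median of all genes of -0.54 in that fit. With median centring the change was -0.31 (adjusted p = 0.662). The dimmest Cdk4 probe set (1422440_at) changed by -1.12 ± 0.16 with the class block (adjusted p = 0.00174). With median centring it changed by -0.73 (adjusted p = 0.226). The brightest Cdk4 probe set was called when only probe sets brighter than the 60th percentile were tested (adjusted p = 0.0417), and when only the brightest probe set of each gene was tested (0.0343). Cdk6 minus Cdk4 within an array was lower by -3.46 in S3 (SD of 0.87 in S1 and 0.87 in S3), without overlap of the arrays (exact permutation p = 0.10, adjusted over the 5 pairs 0.167). Cdk6 alone already separated the subsets by more than Cdk4 varied over all arrays, so this separation and its p were fixed in advance. They add nothing to the result of Cdk6.

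Cdk2, the kinase of E and A cyclins, was not called. Its brighter probe set (1416873_a_at) read 7.03, 6.59 and 8.23 in S1 and 7.91, 6.81 and 8.13 in S3. The short arrays of both subsets read below the long ones, and the subsets overlapped. The log2 change was 0.34 ± 0.53 (95% confidence interval -0.89 to 1.56, adjusted p = 0.803) and -0.10 ± 0.19 with the class block (adjusted p = 0.748). The other Cdk2 probe set was below background on every array. Cdk2 minus Cdk4 changed by 0.88 with overlapping arrays (exact permutation p = 0.20, adjusted 0.25).

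The promoter windows of the 2 partner kinases of the D cyclins are shown, of which Cdk6 was called lower in S3 and Cdk4 was not called. E-box letters, in capitals, occur 1 time in Cdk6 and 4 times in Cdk4, and 0.0609% of all windows hold 3 or more. Neither window holds the letters of the other sites. Both lie on the plus strand of GRCm38.p6, Cdk6 at chr5:3343643-3343892 and Cdk4 at chr10:127063285-127063534. A match is a stretch of letters and no measured binding.
Cdk6: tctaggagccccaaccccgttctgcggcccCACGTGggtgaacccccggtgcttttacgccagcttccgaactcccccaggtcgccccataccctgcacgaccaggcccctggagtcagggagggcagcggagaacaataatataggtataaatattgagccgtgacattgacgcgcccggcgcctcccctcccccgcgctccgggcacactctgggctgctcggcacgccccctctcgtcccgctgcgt
Cdk4: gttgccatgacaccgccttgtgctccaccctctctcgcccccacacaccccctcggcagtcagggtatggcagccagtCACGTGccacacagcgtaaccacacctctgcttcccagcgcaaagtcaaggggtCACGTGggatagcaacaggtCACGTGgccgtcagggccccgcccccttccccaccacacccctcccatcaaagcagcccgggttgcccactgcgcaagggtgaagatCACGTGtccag

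**Figure D3:**
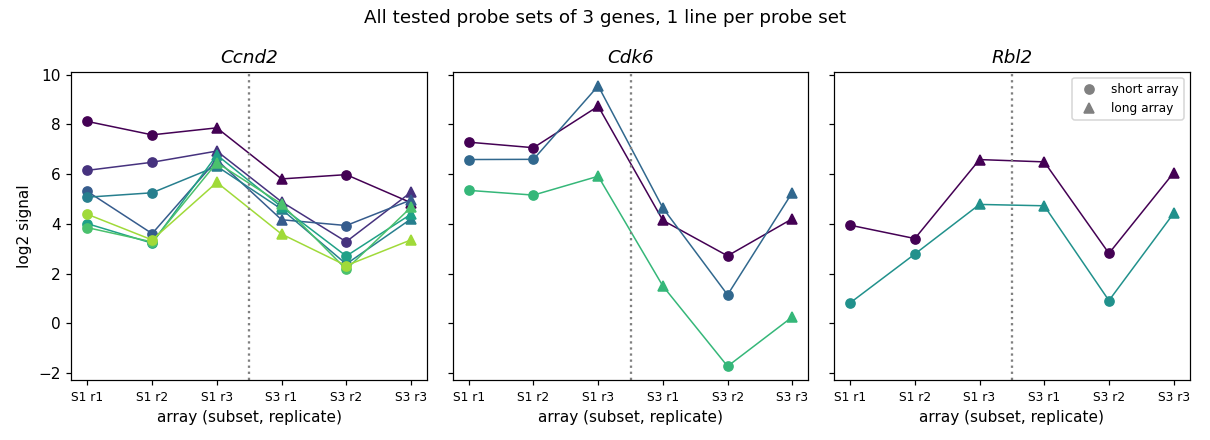
Log2 signal (vertical axis) on the 6 arrays (horizontal axis, S1 left and S3 right of the dotted line) of every tested probe set of Ccnd2 (7), Cdk6 (3) and Rbl2 (2); a line only joins the values of 1 probe set, and circles are short, triangles long arrays. Cdk6 falls within both array classes, several Ccnd2 probe sets overlap between subsets, and Rbl2 follows the array class.

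Of the pocket proteins, Rb1 rose. Its brightest probe set (1417850_at) read 7.54, 7.54 and 8.51 in S1 and 9.57, 9.16 and 9.66 in S3, with no overlap. Rb1 rose from 7.86 ± 0.56 in S1 to 9.46 ± 0.27 in S3 (n = 3), a log2 change of 1.60 ± 0.31 (SE), or 3.03-fold (limma adjusted p = 0.0232). Blocking on class gave 1.36 ± 0.15 (adjusted p = 0.000587), and the change was 1.11 within the long and 1.62 within the short arrays. The second Rb1 probe set lay at 0.46 to 2.20, too dim to be tested, and above background on 2 S3 arrays only. The call was lost without S1 replicate 1 (1.44, adjusted p = 0.0904), S1 replicate 2 (1.44, 0.0940), S3 replicate 1 (1.55, 0.0876) or S3 replicate 3 (1.498, 0.105). Without the intensity trend, adjusted p was 0.0725 for Rb1 and 0.0642 for the brightest probe set of Ccnd3.

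Rbl1, the pocket protein of proliferating cells, was bright in both subsets, and its probe sets disagreed in sign. The probe set 1424156_at read 8.25, 8.62 and 8.90 in S1 and 9.34, 8.83 and 9.43 in S3. Only S3 replicate 2, a short array, lay below the highest S1 array, and the log2 change was 0.61 ± 0.25 (SE, adjusted p = 0.200). The probe set 1425166_at read 8.42, 8.42 and 7.92 in S1 and 7.77, 8.29 and 7.82 in S3, a change of -0.30 ± 0.27 (adjusted p = 0.630) in which the short arrays read highest. In the class-block fit the former was called (0.44 ± 0.14, adjusted p = 0.0428) and the latter was not (-0.13 ± 0.13, adjusted p = 0.509). A dim probe set changed by 1.18 ± 1.21, and the last was too dim to be tested. The 250 bases before the Rbl1 start hold 1 match to the E2F letters, as do those of Cdk2, and the window of Rbl2 holds 1 match to the homology region letters.

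Rbl2, the pocket protein of resting cells, had the widest spread within subsets among the brightest probe sets of the 9 genes. The brighter probe set (1425981_a_at) read 3.95, 3.41 and 6.58 in S1 and 6.49, 2.82 and 6.05 in S3, so in both subsets the long arrays read 6.05 or more and the short arrays 3.95 or less. The log2 change was 0.47 ± 1.16 (95% confidence interval -2.22 to 3.16, adjusted p = 0.884), and it turned to -0.59 ± 0.34 with the class block (adjusted p = 0.238). The dimmer probe set gave 0.56 ± 1.28 and -0.55 ± 0.63 (adjusted p = 0.875 and 0.574). Rb1 minus Rbl1 was higher by 0.99 in S3 without overlap (SD of 0.34 in S1 and 0.06 in S3, exact permutation p = 0.10, adjusted 0.167). Rbl2 minus Rbl1 changed by -0.14 with overlap (exact permutation p = 1.0).

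The other genes of the pathway were read at the brightest probe set of each gene in the same fit. In that fit 2.02% of all genes tested were called higher and 9.62% lower, the shares to set beside the counts below. Of 5 tested Cdk inhibitors 3 rose and 2 were not called, with a list median of 2.32 against -0.33 for all genes. This median is the value of Cdkn1c, which was not called (adjusted p = 0.240). Cdkn1c was above background on 0 S1 and 2 S3 arrays. Cdkn2c, an inhibitor of Cdk4 and Cdk6, rose from 4.54 ± 1.38 in S1 to 8.16 ± 0.66 in S3 (3.62 ± 0.72 (SE), adjusted p = 0.0247). Cdkn2d, of the same INK4 family, rose by 2.65 ± 0.58 (adjusted p = 0.0340). Cdkn1b, an inhibitor of Cdk2 complexes, rose by 0.80 ± 0.19 (adjusted p = 0.0428). Of 10 E2F and DP factors 1 rose, 1 fell and 8 were not called. E2f2, an activating E2F, read 5.86, 5.70 and 6.67 in S1 and 9.57, 8.85 and 9.64 in S3, a rise of 3.28 ± 0.37 (adjusted p = 0.00511) that passed without any 1 of the arrays. E2f3, another activating E2F, fell, with a change of -0.75 ± 0.17 (adjusted p = 0.0406). Of 7 tested E and A cyclins and Cdk activators 1 fell, the Cdk-activating phosphatase Cdc25a (-1.18 ± 0.29, adjusted p = 0.0498), and 6 were not called. Of 10 tested corepressors of pocket proteins 1 fell, the histone deacetylase Hdac2 (-0.97 ± 0.21, adjusted p = 0.0349), and 9 were not called.

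The lists without a call are given with their counts at an unadjusted limma p under 0.05. None of 16 tested E2F targets of DNA replication was called (0 at an unadjusted p under 0.05), and the list median was 0.14. The smallest p among them were those of Pcna (0.61 ± 0.37, adjusted p = 0.411), the sliding clamp, and Rrm2 (0.12 ± 0.08, adjusted p = 0.486), of ribonucleotide reductase. None of 7 genes of the MuvB complex and its partners was called (0 unadjusted), and the list median was 0.54. Mybl2 was at 0.65 ± 0.30 (adjusted p = 0.258) and Foxm1 at 0.58 ± 0.44 (adjusted p = 0.529). None of 9 tested G2 and mitosis genes was called (0 unadjusted), and the list median was 0.63, against -0.33 for all genes. Ccnb2 was at 1.14 ± 0.53 (adjusted p = 0.260) and Aurka at 1.07 ± 0.60 (adjusted p = 0.366). Both passed with the class block (0.66 and 0.52, adjusted p = 0.0119 and 0.0263). None of 8 tested genes of D cyclin turnover and Cdk4 folding was called (2 unadjusted), and the list median was -0.36. Fbxo31 was at -1.58 ± 0.61 (adjusted p = 0.177) and Hsp90aa1 at -0.22 ± 0.09 (adjusted p = 0.200). In the class-block fit 4 of the 8 were called lower, against 36.3% of all genes. Fbxo31 and Hsp90aa1 were among them (-1.14 and -0.27, adjusted p = 0.0253 and 0.0205), next to a median of all genes of -0.54. With the class block, where 4.99% of all genes were called higher and 36.3% lower, 4 of the 5 Cdk inhibitors were higher and 0 lower. In that fit 5 of the 10 E2F and DP factors were higher and 4 lower, 0 of the 16 replication targets were called, and 0 of the 10 corepressors were higher and 7 lower. Leaving out any 1 of the arrays lost the calls of Cdc25a (adjusted p of 0.0906 to 0.174), Cdkn1b (0.0684 to 0.170), E2f3 (0.0700 to 0.148) and Hdac2 (0.0582 to 0.107). For Cdkn2c (up to 0.104) and Cdkn2d (up to 0.138) the calls were lost without S1 replicate 1 (0.0813 and 0.0921), S1 replicate 2 (0.0594 and 0.112), S3 replicate 1 (0.0919 and 0.123) or S3 replicate 3 (0.104 and 0.138). With median centring Cdc25a (adjusted p = 0.217), Cdkn1b (0.0902), E2f3 (0.462) and Hdac2 (0.182) were not called.

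**Figure D4:**
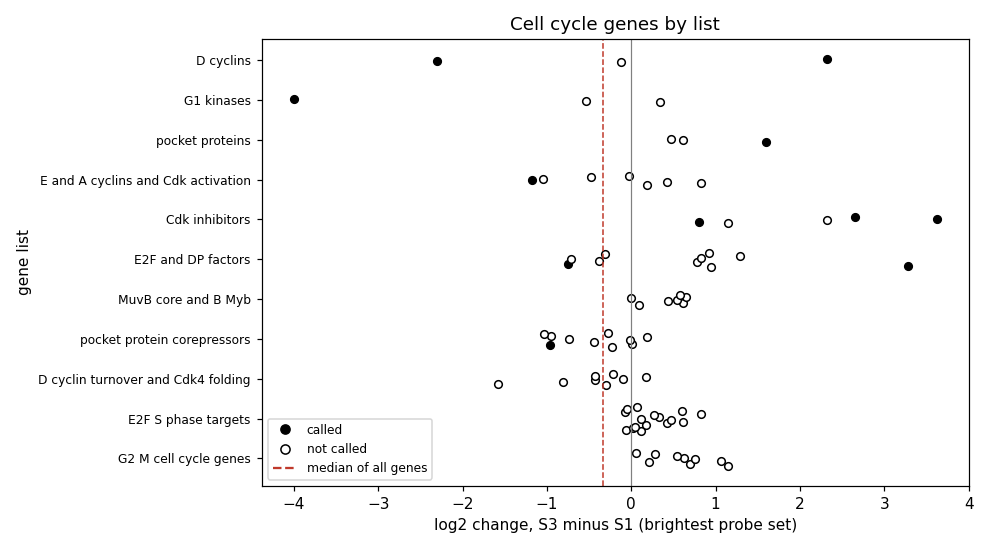
Log2 change from S1 to S3 (horizontal axis) of the brightest probe set of each tested gene in the 3 member lists and 8 pathway lists (rows), filled where limma's adjusted p was under 0.05; the dashed line is the median of all genes, -0.33. The called genes farthest from it are Cdk6 and Ccnd2 to the left and Cdkn2c, E2f2, Cdkn2d and Ccnd3 to the right, while the replication targets have a median of 0.14.

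Profiles most like the 2 extreme members were sought among 11950 other genes, by the root mean square difference over the 6 arrays after centring. Closest to Ccnd3 were Ube2o, a ubiquitin-conjugating enzyme of late red cell precursors (0.13 log2 units), Cdr2 (0.22), Ranbp10 (0.22) and Otub2, a deubiquitinase (0.23). Ube2o read 4.31, 4.001 and 5.36 in S1 and 7.23, 6.28 and 7.10 in S3, with the same high and low arrays as Ccnd3. Closest to Cdk6 were Dctd, the deoxycytidylate deaminase (0.17), Stc2, a secreted glycoprotein (0.25), Dcbld1 (0.28) and Dennd11 (0.33). Dctd read 6.62, 6.49 and 8.11 in S1 and 3.75, 2.55 and 3.83 in S3. These genes share the arrays and their classes with the members, and the likeness is a description of 6 arrays.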

How the data were processed

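Expression was measured on Affymetrix mouse arrays, 3 of S1 and 3 of S3, from RNA amplified and tagged with biotin. Per the series' design text, which the labels accompany, the authors computed MAS5 signals and normalized them to 3 reference transcripts; of MAS5 the version is not given in the sources used here. Values were deposited on a log scale, since they reach below 0, and were read as log2 from their range. They were used as they are.

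Probe sets were named from the platform annotation: 34945 non-control probe sets had 1 symbol, 932 several and 9160 none. Probe sets with a mean above the 40th percentile of non-control probe sets (log2 1.12) were tested, 27022 in all. S3 minus S1 was fitted per probe set with limma 3.58.1 (R 4.3.3; lmFit, eBayes with an intensity trend, two-sided) and adjusted by Benjamini-Hochberg over all of them; calls have an adjusted p under 0.05. There were 4 residual degrees of freedom. Genes were counted at their brightest probe set. Background is the 95th percentile per array of 27 bacterial control probe sets (log2 1.01 to 1.74). Precision is limited by the number of arrays. MAS5 detection calls were not used. Array gene names can be old, and probe sets whose identifier ends in x_at or s_at may read related transcripts too.

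Members, lists, alternatives and the split into short and long arrays (actin control below or above -1.5) were chosen with earlier results of these data known. Outside the 9 members, genes were named by a rule: in each pathway list up to 3 called genes with the smallest p, or the 2 with the smallest p where none was called, and the 4 most similar profiles. Stage markers were named after their values were seen. Same-numbered arrays deviated together with correlations of 0.02, 0.39 and 0.41, and the numbers were not taken as pairs.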

Additional observations from a re-analysis of the deposited data

How the results depend on the processing

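Ccnd3, Rb1, Ccnd2 and Cdk6 kept their direction at the brightest probe set in every alternative tried. Higher calls, 3 over all arrays, were 1 without the intensity trend; lower calls, also 3, were 5 with median centring, 12 with the class block, 6 with both, and 13 on the long arrays alone. On the short arrays alone 0 were called in either direction. Each class holds 1 subset as a lone array (S1 in the long, S3 in the short class), which these counts assume to vary like the other subset, so they show no replicated difference. Member genes called higher, 2 over all arrays, were 0 without the trend, on short arrays and with the mean of probe sets per gene; those called lower, also 2, were 1 with quantile normalization, 0 on short arrays and 1 with the mean of probe sets. Leaving out 1 array gave 0 to 3 probe sets in each direction, and 0 to 2 genes in each.

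Over all probe sets, higher calls (436) were 748 with median centring, 1097 with quantile normalization, 949 with a 2% trimmed mean, 254 without the trend, 1125 with the class block, 1617 with block and centring, 1170 on long and 0 on short arrays, and 95 to 488 without 1 array. Lower calls (1801) were 1144 with centring, 1142 without the trend, 7618 with the block, 7040 on long and 0 on short arrays, and 314 to 1282 without 1 array. Pathway genes called higher (4) were 11 with quantile normalization, 10 with the trimmed mean, 1 without the trend, 12 with the block, 16 with block and centring, 9 on long and 0 on short arrays, and 1 to 5 without 1 array. Those called lower (3) were 0 with centring, the trimmed mean, no trend or short arrays, 1 with quantile normalization, no filter, block and centring or the mean of probe sets, 5 with only the brightest probe set of each gene tested, 18 with the block, 15 on long arrays, and 0 without any 1 array.

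The within-array change of Ccnd3 minus Ccnd2 was 3.59 with the mean of probe sets (4.19 to 5.12 without 1 array), Rb1 minus Rbl1 0.62 on long arrays (0.81 to 1.16), Rbl2 minus Rbl1 0.016 with the mean of probe sets (-0.77 to 0.83), Cdk6 minus Cdk4 -3.84 to -2.96 and Cdk2 minus Cdk4 0.47 to 1.31.

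Signs turned only for values that were not called over all arrays. Ccnd1 1448698_at was 0.11 with centring, 0.22 with quantile normalization, 0.15 with the trimmed mean, 0.28 with block and centring, 0.32 on long arrays and -0.29 to 0.10 without 1 array. Ccnd1 1417420_at was -0.00108 with the block, -0.49 on long arrays and -0.074 to 0.27 without 1 array, and Ccnd1 1417419_at 0.28 raised to background, 0.42 with block and centring, 1.52 on short arrays and -1.21 to 0.34 without 1 array. Without 1 array Ccnd2 1455956_x_at was -1.46 to 0.31 and 1416122_at -1.27 to 0.32, both positive without S1 replicate 3 and the latter also without S3 replicate 2 (0.205). Cdk2 was -0.10 with the block, -0.21 on long arrays and -0.0088 to 0.81 without 1 array. Rbl1 1425166_at was 0.014 with quantile normalization and 0.32 with block and centring, and Rbl1 1432604_at -0.037 on long arrays and -0.36 to 2.06 without 1 array. Rbl2 1425981_a_at was -0.59 with the block, -0.14 with block and centring, -0.31 on long and -0.86 on short arrays, and -0.21 to 1.62 without 1 array; 1418146_a_at was -0.55, -0.10, -0.21 and -0.89, and -0.43 to 1.78. Hsp90aa1 was 0.012 with centring, 0.054 with the trimmed mean and 0.18 with block and centring. The cause of these turns was not tested.

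The replicate numbers were not taken as pairs. S1 replicate 1 deviated most like S3 replicate 2, though weakly (correlation of 0.11, against 0.02 with S3 replicate 1). S1 replicates 2 and 3 deviated most like the S3 array of the same number (0.39 and 0.41). In each of these matches both arrays were of the same class, so the correlations do not settle whether the numbers mark sort days. With the replicate number as a block 3 member probe sets were higher and 4 lower, and 2 genes each way; over all probe sets 634 were higher and 2308 lower, and of pathway genes 6 and 3. Probe sets near background, such as those of Ccnd1 1417419_at and Ccnd3 1438805_at, limit what can be read.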
